A study of Gossypium barbadense and Gossypium hirsutum with 4 samples.

Results

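The islands described here are CENH3-enriched regions of 2 cultivated cottons, Gossypium barbadense and Gossypium hirsutum. They lie in windows that a rule took as the cores of the 13 D subgenome centromeres. On D02 and D08 of G. hirsutum those windows may not be centromere cores, for reasons given below. An island is a stretch of sequence that the authors' peak caller, SICER, found enriched in ChIP over input reads. Its scaled ratio is ChIP reads over input reads (input set to at least 3 reads) times a constant for each list, 1.64 for G. barbadense and 1.2 for G. hirsutum, that the authors' fold values imply. An island is called strong here at a scaled ratio of 8 or more. On each of the chromosomes D01 to D13, in each species' list, a window of 1 Mb was moved in steps of 100 kb. The centre of the core was the midpoint of the window that held the most ChIP reads in strong islands. Of equal windows the first was taken. Every island whose midpoint lay within 1 Mb of that centre is a member, strong or not. The G. barbadense list gave 5261 members of its 67639 islands and the G. hirsutum list 1122 of 88971, or 6383 of 156610 in all. The same rule on chromosomes A01 to A13 gave 4933 and 1793 islands.

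The 4 libraries were, for each species, 1 made with a CENH3 antibody (ChIP) and 1 with none (input), from leaf collected 4 weeks after planting. Nuclei were opened by micrococcal nuclease in ChIP and input alike. The lists carry the line names Hai7124 (G. barbadense) and TM_1 (G. hirsutum), and both lines are allotetraploids with an A and a D chromosome set in the same nuclei. There was no replicate of any library, and the number of plants behind a library is not given in the sources used here.

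CENH3 is the histone H3 variant that takes the place of canonical H3 in the nucleosomes of active centromeres, where the kinetochore is assembled and spindle fibres attach in cell division. In plants these nucleosomes are commonly interleaved with nucleosomes of canonical H3. Plant centromeres are often rich in satellite repeats and in retrotransposons of the centromeric type. The D chromosomes of the cultivated tetraploids descend from a New World diploid related to Gossypium raimondii, and they are shorter than their A counterparts.

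The members were chosen from ChIP reads and from the ratio of ChIP to input. Their ratios, read numbers and crowding near the centre therefore describe what was selected, and none of them was tested. The range in parentheses after a ratio is its 95% exact binomial (Clopper-Pearson) interval, which reflects counting error alone and treats reads as independent. Reads that carry no molecular identifier may be copies of 1 molecule, and the interval is then too narrow. Summed over all islands, the G. barbadense list held 4068080 reads from ChIP and 2164077 from input, and the G. hirsutum list 6132203 and 3522063. The lists are on different assemblies, so positions are given on each list's own coordinates and are compared only as a percentage of the end of the last island.

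In G. barbadense every D chromosome had 1 dense cluster of strong islands. The centres lay at 34.6 Mb on D01, 32.9 Mb on D02, 14.4 Mb on D03, 27.7 Mb on D04, 42.8 Mb on D05, 33.5 Mb on D06 and 41.1 Mb on D07. They lay at 26.9 Mb on D08, 21.8 Mb on D09, 38.9 Mb on D10, 45.0 Mb on D11, 18.2 Mb on D12 and 28.2 Mb on D13. The window that set the centre held between 24008 ChIP reads (D11) and 56492 (D03) in strong islands. The best window more than 2 Mb away held a median of 217 such reads. The top window exceeded it by 110.6 times or more on 11 chromosomes, by 74.0 times on D06 and by 20.2 times on D07. On D07 the other site was at the start of the chromosome, centred on 0.5 Mb, with 29 strong islands and 2283 ChIP reads. On D06 it lay at 38.2 Mb, with 13 strong islands and 684 ChIP reads.

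The same search in G. hirsutum found a cluster that stood clear of the rest of the chromosome on 9 D chromosomes, a smaller lead on D04 and D11, and little on D02 and D08. The centres lay at 34.5 Mb on D01, 30.9 Mb on D02, 14.1 Mb on D03, 25.9 Mb on D04, 41.9 Mb on D05, 34.9 Mb on D06 and 41.4 Mb on D07. They lay at 14.9 Mb on D08, 20.5 Mb on D09, 38.9 Mb on D10, 44.0 Mb on D11, 18.3 Mb on D12 and 30.7 Mb on D13. The winning window held 5836 ChIP reads in 79 strong islands on D13, the most of any D chromosome, and 5053 in 67 on D03. On 9 chromosomes it held 14.9 to 76.8 times the reads of the best window more than 2 Mb away. On D11 it held 526 reads in 13 strong islands, 6.74 times that window. On D04 it held 835 reads in 15, only 3.41 times the best window elsewhere, which was at 0.5 Mb with 245 reads in 8 strong islands. On D02 it held 84 reads in 2 strong islands, 1.14 times the best window elsewhere, which was at 0.6 Mb and had 74 reads in 3. On D08 it held 129 reads in 1 strong island, 1.52 times the best window elsewhere, at 47.2 Mb. The D02 and D08 cores of G. hirsutum are therefore sites named by the rule rather than clusters of strong islands, and the pooled results for this species are also given without them where they bear on the value.

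**Figure D1:**
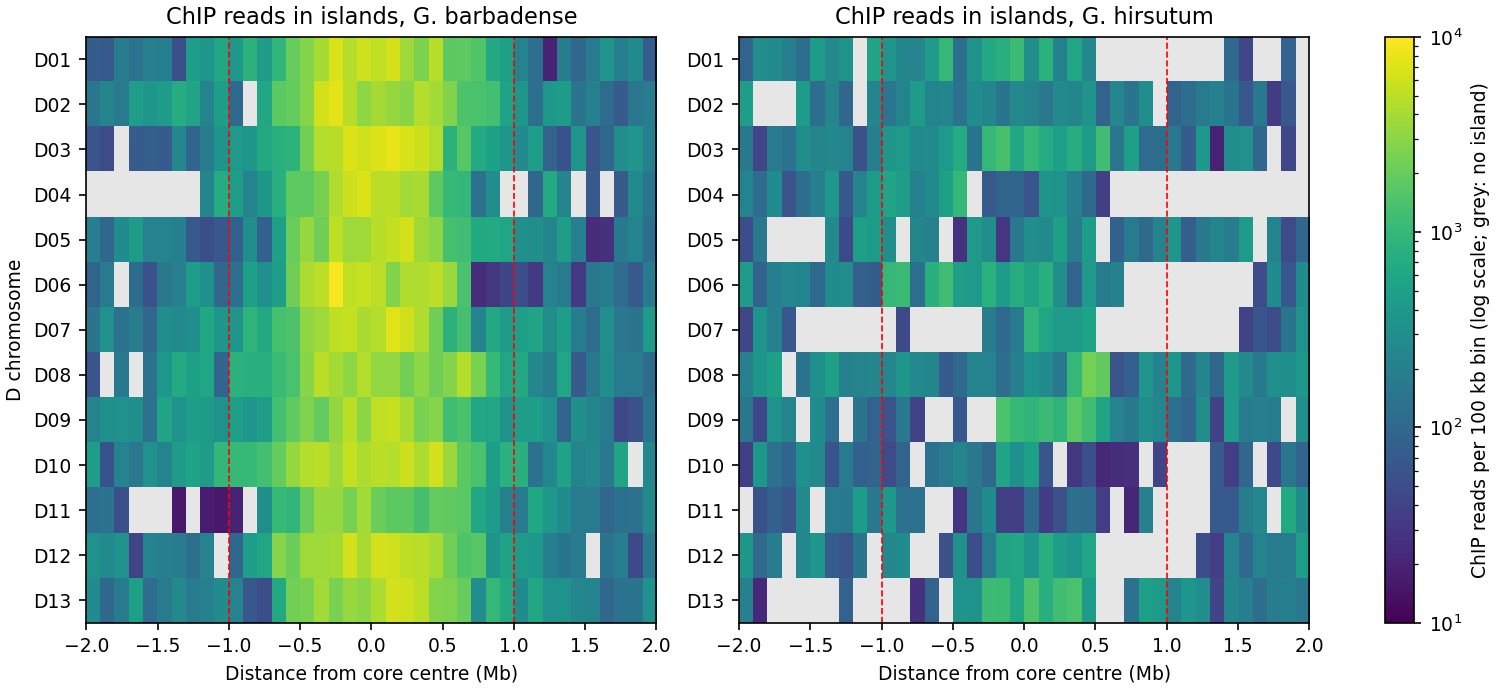
ChIP reads in islands per 100 kb bin (colour, log scale, grey where no island was called) against distance from the core centre in Mb, for each D chromosome in the G. barbadense (left) and G. hirsutum (right) lists; dashed lines mark the limit of 1 Mb. In G. barbadense a bright block about as wide as the central 1 Mb is seen on all 13 chromosomes, while in G. hirsutum the signal is lower and grey stretches adjoin several cores.

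By a broad limit, the centres sat at like relative places in the species on 12 of 13 D chromosomes. On these 12 the positions differed by at most 5 percentage points of chromosome length, a limit wider than a core window. The median difference over all 13 was 0.990 points. The closest were D10 (58.2% in both lists) and D06 (53.4% and 53.3%). D04 differed by 2.81 points (48.3% in G. barbadense and 45.5% in G. hirsutum) and D02 by 3.47 points. D02 and D04 count as matched by this limit. Yet no strong island lay within 1 Mb of the places in G. hirsutum at the same percentages as their G. barbadense centres. The D02 centre of G. hirsutum also rests on 2 strong islands alone. D08 differed by 18.1 points, at 39.8% and 21.6%. Without D02 and D08 the median over the other 11 was 0.713 points and the largest difference was that of D04. The rule used each list by itself, so this likeness was not part of how the members were chosen. The ratio of long to short arm implied by the centres had a median of 1.47 in G. barbadense, from 1.07 on D04 to 2.74 on D03, with D07 and D12 at 2.56 and 2.34.

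Strong islands made up most members in G. barbadense and fewer in G. hirsutum. In G. barbadense 4363 of 5261 members (82.9%) were strong, beside 16.5% of all islands in the list, and in G. hirsutum 474 of 1122 (42.2%) were, beside 2.65% of all islands. Without D02 and D08 the G. hirsutum share was 49.1%. The rule placed the cores by ChIP reads in strong islands, so nothing is read from these shares beyond their size. Per chromosome the strong share ran from 76.6% (D07) to 89.2% (D11) in G. barbadense. In G. hirsutum it ran from 67.3% on D07 and 65.0% on D13 down to 22.4% on D04, 2.90% on D02 and 1.06% on D08. Members under a ratio of 4 were 7.70% in G. barbadense (405 islands) and 33.1% in G. hirsutum (371), or 222 of 959 there without D02 and D08. In the whole lists 28.6% and 9.75% of islands had a ratio of 4 or more.

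**Figure D2:**
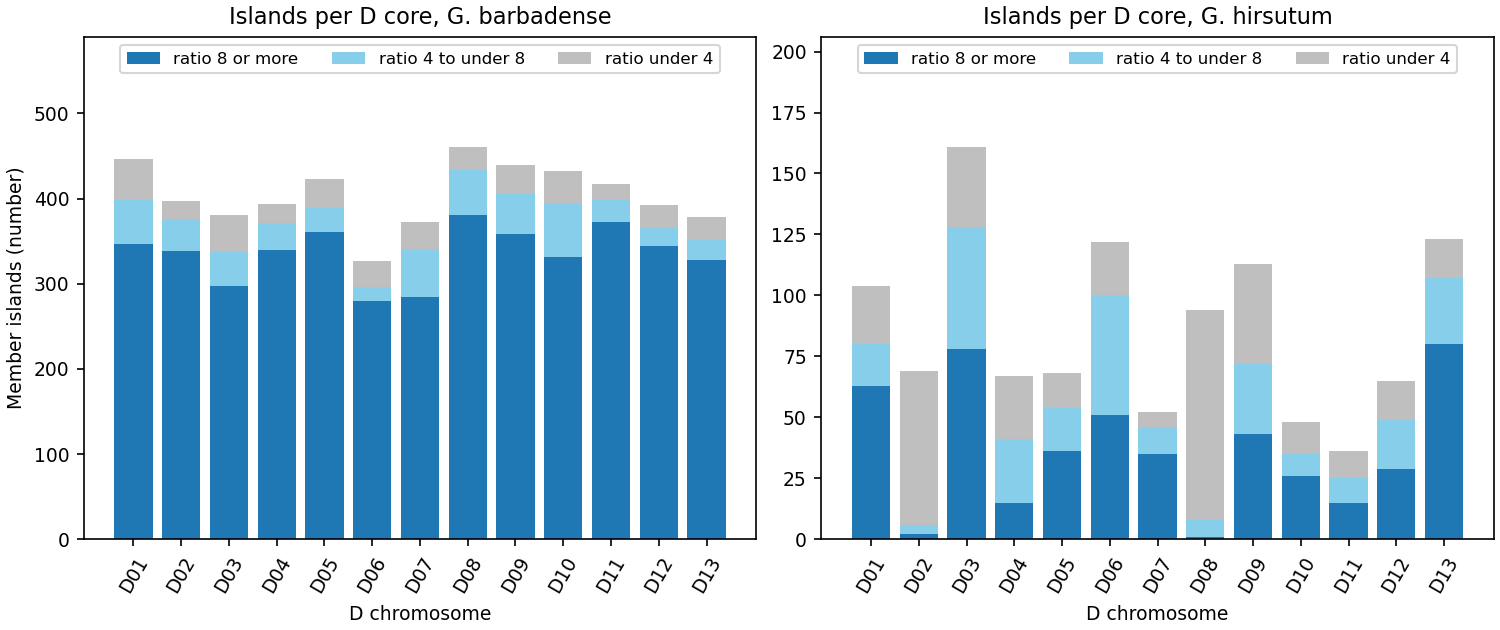
Number of member islands per D core, stacked by scaled ratio (8 or more, 4 to under 8, under 4), in G. barbadense (left) and G. hirsutum (right); the vertical axes differ. Strong islands number 280 to 381 per core in G. barbadense and 1 to 80 in G. hirsutum, where 63 of 69 islands on D02 and 86 of 94 on D08 are under 4.

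The ratio of summed ChIP to summed input reads over the members of a core, times the list's constant, is called its pooled ratio and was high and even in G. barbadense. Over the 13 D cores together it was 20.2 (95% interval 19.99 to 20.33), from 686549 ChIP and 55851 input reads. D04 had the highest value, with 47076 ChIP and 3301 input reads in 394 islands and a ratio of 23.4 (22.6 to 24.2). D02 followed at 23.1 (22.3 to 23.8), from 54954 and 3909 reads. D06 and D05 had ratios of 22.1 (21.4 to 22.8) and 22.02 (21.29 to 22.77), and D03 had 21.6 (21.0 to 22.3). The intervals of D02, D04, D05 and D06 overlap, as do those of D03, D05 and D06. The middle of the order was close, with D11 at 21.0, D13 at 20.8, D12 at 20.7 and D08 at 19.9. D09 and D10 followed at 18.6 and 18.3. D01, with 57511 ChIP and 5502 input reads, had 17.1 (16.7 to 17.6), and D07, with 54308 and 5275 reads, had 16.9 (16.4 to 17.4). The lowest and highest D cores of this species thus differed by less than 1.5 times.

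D11 stood apart in another way. Its core had the fewest ChIP reads of the 13 (31288, the others 44261 or more), the fewest input reads (2439) and the smallest share of its window covered by islands (27.3%). Its strong share (89.2%) and its share of islands with no input read (28.8%) were the highest. Its pooled ratio of 21.0 (20.2 to 21.9) was nonetheless in the middle of the order. At the other end D10 had 65299 ChIP and 5847 input reads, and its islands covered 43.5% of the window.

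The pooled ratio in G. hirsutum was lower and spread more widely. Over 13 D cores it was 4.57 (4.50 to 4.64), from 82631 ChIP and 21718 input reads, and over the 11 without D02 and D08 it was 5.57 (5.47 to 5.67). D07 was highest, with only 3438 ChIP and 465 input reads in 52 islands and a ratio of 8.87 (8.05 to 9.80). D13 followed with 9955 and 1639 reads and a ratio of 7.29 (6.92 to 7.68). D10 (5.96), D03 (5.92), D01 (5.84) and D06 (5.57) had overlapping intervals. D09 had 5.23, D12 had 4.98 and D05 had 4.96. D11, with 1906 ChIP and 588 input reads in 36 islands, had 3.89 (3.54 to 4.27) and D04 had 3.70 (3.48 to 3.93). The D11 value depended on the settings. It was 6.95 with the centre placed by a window of 0.5 Mb, 6.60 with a ratio of 16 to place the centre, and 5.88 with a false discovery rate at or below 1e-10, so its place in the order is not fixed. D08 had 8738 ChIP and 4143 input reads and a ratio of 2.53 (2.44 to 2.63), and D02 had 4353 and 2592 reads and 2.02 (1.92 to 2.12).

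**Figure D3:**
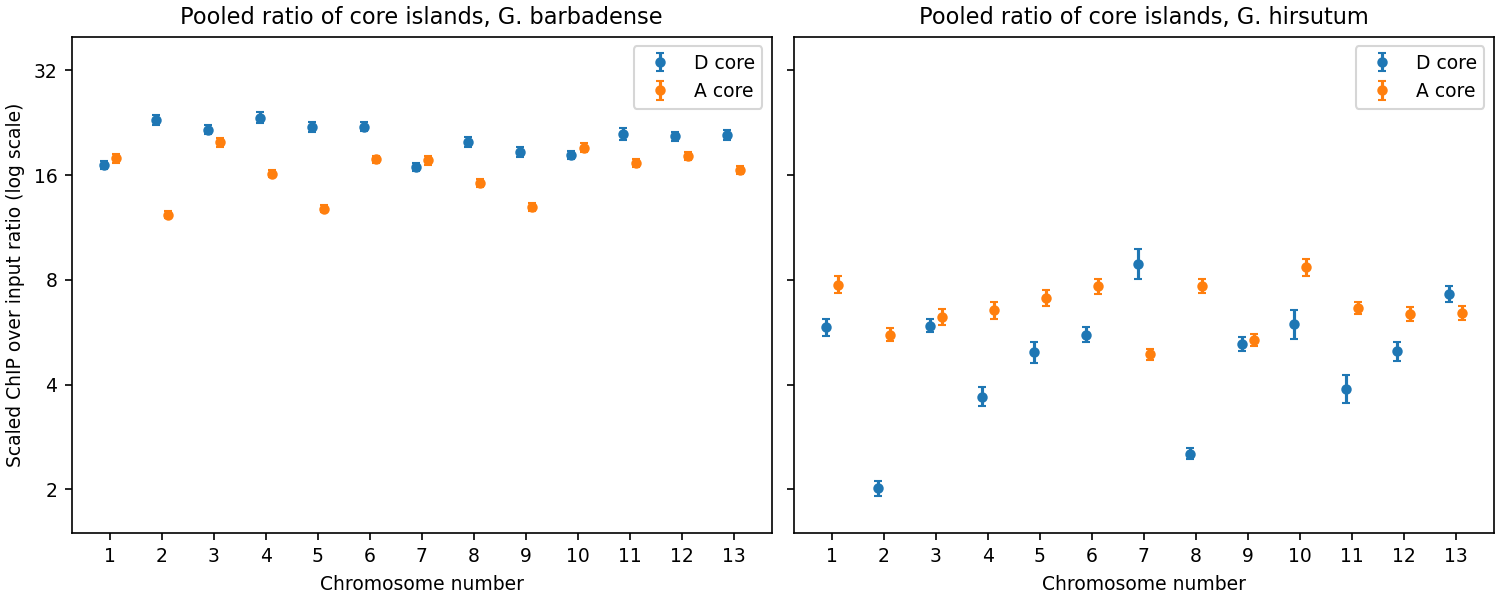
Pooled scaled ratio of core islands (log scale) by chromosome number in G. barbadense (left) and G. hirsutum (right), D cores in blue and A cores in orange; bars are 95% exact binomial intervals for counting error. The D cores lie between 16.9 and 23.4 in G. barbadense and between 2.02 and 8.87 in G. hirsutum, where D02 and D08 are lowest.

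The order of the D cores by pooled ratio was not shared by the species. The rank correlation over 13 chromosomes was -0.57 (Spearman's rho), and -0.62 over 11 without D02 and D08. It is given as a description, since the chromosomes of a list share 1 ChIP and 1 input library. D07 had the lowest pooled ratio in G. barbadense and the highest in G. hirsutum. D04 was highest in G. barbadense and in G. hirsutum lay above D02 and D08 alone. D13 was at the middle of the order in G. barbadense and was second in G. hirsutum. Some of these places depended on the settings. With members within 0.5 Mb, D07 in G. hirsutum had 9.19, below D01 (11.1), D03 (9.68) and D13 (9.35). D04 there had 6.79, above D09 (6.53) and D12 (5.865). In G. barbadense D04 then had 41.1, below D03 (42.3) and D02 (41.9) among others, and D07 was still lowest at 32.15.

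The pooled ratio was also taken over strong members alone, which cuts off every value under 8, so neither its level nor its spread between cores is compared with that over all members. In G. hirsutum it was 13.3 (12.8 to 13.8), from 11.8 on D04 to 17.1 on D11 without D02 and D08, with a wide interval on D11 (12.47 to 23.92, from 15 strong islands). In G. barbadense it was 33.5 (33.15 to 33.92), from 29.5 on D10 and D12 to 41.8 on D01. The cut left out the 100 weaker members of D01, so its place here is not set beside its place over all members. Those 100 members carried 14.7 input reads per kb, against 3.59 in the 347 strong ones of D01. The cut at 8 itself sorts members by input reads as well as by ChIP reads.

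Signal was concentrated in about the central 1 Mb in G. barbadense. Within 250 kb of the centre, 1757 of 1758 islands were strong, the pooled ratio was 48.3 (47.4 to 49.3) and islands covered 47.3% of the sequence. Between 250 and 500 kb, 97.6% of 1769 islands were strong, with a ratio of 30.2 (29.7 to 30.7) and 46.1% cover. Between 500 and 750 kb the strong share was 68.0% and the ratio 9.31 (9.16 to 9.46), and between 750 and 1000 kb they were 17.9% and 3.62. Island cover in these outer zones was 33.0% and then 17.3%. Input reads per kb of island went the other way, at 3.40 in the innermost zone, 4.48, 8.19 and 12.9 further out, and 20.03 at 2000 to 2250 kb. ChIP reads per kb went from 100.2 in the innermost zone to 28.4 in the outermost zone of the core. Within called islands, ChIP density was thus higher and input density lower toward the centre. Strong members held 4.12 input reads per kb of island and weaker ones 13.4, and the centre was placed by strong islands. This gradient therefore describes what was selected and not the sequence as a whole.

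The G. hirsutum ratio also declined with distance, over a smaller range. Without D02 and D08 the pooled ratio was 9.79 (9.46 to 10.1) within 250 kb, 6.61 (6.38 to 6.84) at 250 to 500 kb, 3.98 (3.82 to 4.16) at 500 to 750 kb and 2.48 (2.40 to 2.57) at 750 to 1000 kb. The strong share went from 70.9% of 399 islands through 54.9% and 14.5% to 5.04%. With D02 and D08 the innermost ratio was 7.68 and the innermost strong share 64.9%. Input reads per kb of island were 5.59 in the innermost zone and 14.9 at 750 to 1000 kb. They too were lower toward the centre, with the same limit from the selection. Beyond 1000 kb the ratio lay between 2.01 and 2.19 in every zone of 250 kb out to 3000 kb, against 2.04 to 2.82 in G. barbadense.

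**Figure D4:**
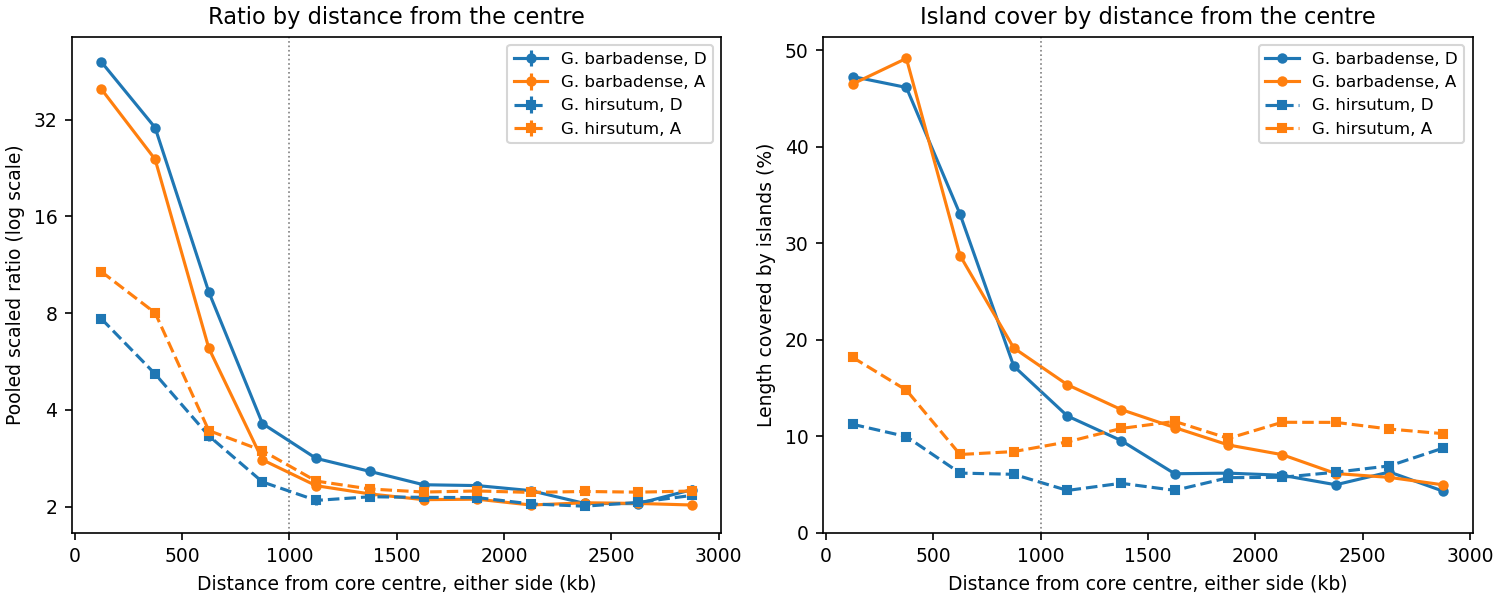
Pooled scaled ratio (left, log scale, bars 95% exact binomial intervals) and percentage of sequence covered by islands (right) against distance from the core centre in kb, in zones of 250 kb on either side pooled over 13 chromosomes; D in blue, A in orange, G. barbadense as circles with solid lines and G. hirsutum as squares with dashed lines. The D ratio in G. barbadense goes from 48.3 in the innermost zone to 3.62 at 750 to 1000 kb, and the G. hirsutum ratio with all 13 chromosomes from 7.68 to 2.39.

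The centre ratio was high on each G. barbadense D chromosome taken singly. Within 250 kb it ran from 37.5 (35.4 to 39.8) on D12 to 56.4 (52.5 to 60.6) on D01, with D03 at 54.95 and D06 at 54.2. Beyond 750 kb it was 2.36 (2.12 to 2.63) on D06 at the lowest and 5.47 (5.15 to 5.81) on D08 at the highest, with D02 at 4.96. D08 and D02 also had the most strong islands in that outer zone, at 23 and 20, and the other 11 had 1 to 11. The stretch that held the middle 90% of ChIP reads in strong members was 1.05 Mb at the median, from 0.875 Mb on D07 to 1.18 Mb on D08. The D08 stretch ran from -464.8 kb to 715.1 kb about the centre, the farthest to the right of the 13. D13 had 37.3% of its ChIP reads on the left side, and D11 had 56.1%.

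The islands of a D core were short and closely set in G. barbadense. Their median length was 1200 bp, and the gap between neighbours had a median of 1.2 kb on 12 chromosomes and 1.6 kb on D11. Runs of consecutive strong islands, with none weaker between them, reached 294 islands on D02 and were never shorter than 142 (D01) at their longest. The longest island-free stretch of a core window was 55.8 kb or less on D01, D03, D05, D08, D09, D10 and D12, and reached 190.4 kb on D11, 178.4 kb on D04 and 161.8 kb on D06. All 3 of these lay more than 700 kb from the centre. No 100 kb bin was empty on 10 of the 13 chromosomes, and 3 of 260 bins were empty in all.

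Pooled ratios by island length varied less in G. barbadense than in G. hirsutum. Members of up to 600 bp (31.4% of islands, 10.03% of ChIP reads) had a pooled ratio of 27.6 (26.7 to 28.5). Members over 4800 bp (6.73% of islands, 32.8% of ChIP reads) had 21.8 (21.5 to 22.2). The intermediate classes had 21.7, 17.3 and 18.3. The median ratio of single islands, with the floor of 3 input reads, was instead lowest in the shortest class, at 16.4. It was highest in the longest class, at 28.3. In G. hirsutum the pooled ratio was 8.50 (7.94 to 9.11) for members of up to 600 bp and 7.01 for 600 to 1200 bp, against 4.04 to 4.23 for the 3 longer classes. The median island ratio in G. hirsutum was 9.20 in the shortest class and 3.94 in the longest. There the strong share went from 68.0% in the shortest class to 26.4% at 2400 to 4800 bp and 30.4% above that. Without D02 and D08 the pooled ratios were 9.13 and 8.18 in the 2 shorter classes and 4.77 to 5.25 in the 3 longer ones.

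The island with the most ChIP reads in any D core lay almost on the centre of D08 in G. barbadense, at 26888401 to 26907600. It was 19200 bp long and held 2547 ChIP and 78 input reads, a ratio of 53.6. The next were on D03 at 14212201 to 14228200 (2312 and 85 reads, ratio 44.6) and on D07 at 41222601 to 41238600 (2196 and 70 reads, ratio 51.5). The highest ratio with at least 3 input reads was 242.7, on D03 at 14233801 to 14239000, from 592 ChIP and 4 input reads, a short way to the right of the D03 island just named. The longest members were on D07 at 40896401 to 40918400 (22000 bp, ratio 32.1), on D12 at 18906601 to 18927400 (20800 bp) and the D08 island above. The D12 island differed from the rest, with a ratio of 5.74, 271 input reads and a place 717 kb from the centre.

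Among G. hirsutum members the island with the most ChIP reads was on D13 at 30773001 to 30778600, with 497 ChIP and 46 input reads over 5600 bp and a ratio of 12.97. The next were on D08, at 15351601 to 15364600 (496 and 182 reads, ratio 3.27) and at 15422201 to 15436400 (493 and 203 reads, ratio 2.91). These D08 islands were 13000 and 14200 bp long and, with another on D08 at 15338201 to 15351000, were the longest members in this species. That D08 core thus held the longest islands of the G. hirsutum members at ratios of 2.75 to 3.27, where the median over all islands of the list was 2.17. The highest ratio with at least 3 input reads was 39.6, on D09 at 20641001 to 20643600, from 99 and 3 reads. It was followed by 35.4 on D13 at 30596801 to 30598600 and 30.6 on D10 at 38829201 to 38832600.

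The D08 strong island of G. hirsutum lay at 15391401 to 15395600, with 129 ChIP and 19 input reads and a ratio of 8.15, and the next highest on that chromosome's core was 7.60. The 2 strong islands of D02 were 600 bp each, at 31387401 to 31388000 (38 and 2 reads, ratio 15.2) and 31208401 to 31209000 (46 and 6 reads, ratio 9.20). Taking the first of equal windows put these islands toward its right edge, 487.7 and 308.7 kb from the centre on D02 and 493.5 kb on D08. That no strong island lay within 250 kb of either centre was thus set by the rule. In that zone 94.4% and 94.7% of the islands had a ratio under 4, and nothing is read from these shares.

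At the threshold of 8, the weakest strong member of G. barbadense was on D02 at 8.007 and the nearest below it on D05 at 7.995. The corresponding values in G. hirsutum were an island on D13 with 20 ChIP reads and no input read, whose ratio is 8, and 7.95 on D12. Ratios of 7 to 8 were held by 79 members of G. barbadense and of 8 to 9 by 127, and by 53 and 70 members of G. hirsutum. At the limit of 1 Mb, members 900 to 1000 kb from the centre had a median ratio of 3.55 in G. barbadense (208 islands, 33 strong). Islands just outside, at 1000 to 1100 kb, had 3.28 (191 islands, 22 strong). In G. hirsutum the medians were 2.31 (64 islands) and 1.97 (58 islands), or 2.33 and 2.09 without D02 and D08.

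Members without any input read were common, and their ratios rest on the floor of 3 reads. In G. barbadense they were 1145 members (21.8%), beside 3.64% of all islands in the list. In G. hirsutum they were 68 members (6.06%, or 7.09% without D02 and D08), beside 0.316% of all islands. Taken the other way, the D cores of G. barbadense held 46.6% of the 2459 islands of this kind, and those of G. hirsutum held 24.2% of 281. The floor set the ratio of every member with fewer than 3 input reads. These were 2130 members (40.5%) in G. barbadense and 188 (16.8%, or 19.5% without D02 and D08) in G. hirsutum. A member had a median of 4 input reads in G. barbadense and 12 in G. hirsutum (10 without D02 and D08), so the ratio of a single island rests on few reads.

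In G. hirsutum several cores adjoined long stretches without any island. Others did not, and the longest stretch reaching within 2 Mb of the centre was 241.4 kb on D03 and 124.6 kb on D08. On D01 no island was called from 469.4 to 1415.4 kb to the right of the centre, on D04 from 528.4 to 2197.4 kb, on D06 from 695.6 to 1623.8 kb and on D12 from 417.4 to 1225.0 kb. D07 had such stretches on both sides, from 501.2 to 1502.6 kb to the right and from -807.6 to -235.2 kb on the left. The middle 90% of its ChIP reads in strong members lay between them, from -2.6 to 437.6 kb, and on D12 from -28.9 to 415.0 kb. On 7 of 13 D chromosomes of G. hirsutum (D01, D04, D06, D07, D10, D12 and D13) the longest island-free stretch of the whole chromosome reached into the 2 Mb on either side of the core centre. Those 4 Mb are a median of 6.25% of the chromosome. In G. barbadense this was so on 1 of 13 D chromosomes, D04, and on 1 of 13 A chromosomes. The A chromosomes of G. hirsutum had 2 of 13. Within 1 Mb of the centre 51 of 260 bins of 100 kb (19.6%) held no island on the D chromosomes of G. hirsutum, against 24 of 260 (9.23%) on the A chromosomes, and 3 and 0 of 260 in G. barbadense. Without D02 and D08 the G. hirsutum D count was 50 of 220 (22.7%). This pattern was noticed in the data and was not tested, and the lists do not tell missing sequence from sequence with no unique read or no enrichment.

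The weak G. hirsutum chromosomes could be read at the place where the other species had its core. The G. barbadense centre of D08, at the same percentage of chromosome length, falls at 27.4 Mb of the G. hirsutum list. Only 2 islands lay within 1 Mb of that point, with 96 ChIP and 40 input reads and a ratio of 2.88 (1.97 to 4.28). The point itself was inside the longest island-free stretch of that chromosome, 1191 kb from 26.55 to 27.74 Mb. The D04 centre of G. barbadense fell at 27.5 Mb, inside the stretch of 1669 kb without islands that begins beside the G. hirsutum core, and 9 islands with a ratio of 2.21 lay within 1 Mb of it. The D02 centre fell at 33.3 Mb, with 27 islands, none strong, and a ratio of 2.37 (2.16 to 2.59). The projected point was inside the longest stretch on D07 too, where the core was found close by. In the reverse projection, G. barbadense islands within 1 Mb of the G. hirsutum D02, D04 and D08 centres had ratios of 2.64, 2.82 and 2.29. The other 10 gave 12.4 to 37.1. The D04 point, at 26.09 Mb, was itself inside the longest island-free stretch of that G. barbadense chromosome, 2377.4 kb from 24.12 to 26.5 Mb.

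Between the species, every D core had more strong islands and a higher pooled ratio in G. barbadense. The pooled ratio was a median of 3.96 times that of G. hirsutum, from 1.90 times on D07 to 11.4 times on D02, and 3.66 times over the 11 chromosomes without D02 and D08. Strong islands were a median of 8.33 times as many over those 11, from 3.81 times on D03 to 24.8 times on D11, and 10.03 times over 13. Islands covered a median of 4.95 times as much of the window, from 2.35 times on D09 to 12.55 times on D10. With 1 library per species, species, antibody yield, depth and assembly cannot be told apart in these values.

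The D cores were set beside the A cores found by the same rule in the same libraries. These values come from the contrast that chose both sets, so they were not tested and nothing is called particular to D. In G. barbadense the D core had the higher pooled ratio in 10 of 13 pairs of equal number. The D to A ratio had a median of 1.24, with 0.954 in the lowest pair and 1.87 in the highest. The A core was higher in pairs 1, 7 and 10. In G. hirsutum it was the other way, with D higher in 2 of 13 pairs, 7 and 13, and a median of 0.726. Without pairs 2 and 8 the median there was 0.753, with D higher in 2 of 11. Pairs 2 to 5 join A chromosomes that carry known translocations, and without them D was higher in 6 of 9 pairs in G. barbadense and in 2 of 9 in G. hirsutum. The G. barbadense direction also depended on the measure. By the median ratio of a core's islands D was higher in 8 of 13 pairs, with a median D to A ratio of 1.09, and without pairs 2 to 5 in 4 of 9, with 0.941.

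Read densities were compared in the same pairs. In G. barbadense, input reads per kb of core island were lower on D in 13 of 13 pairs, at a median of 6.07 against 8.43 on A. ChIP reads per kb were lower on D as well, in 12 of 13 pairs, at 72.9 against 87.9, which is a smaller difference in proportion. In G. hirsutum input density was 8.74 on D and 8.83 on A at the median, with D higher in 8 of 13 pairs (6 of 11 without pairs 2 and 8), and ChIP density was lower on D in 12 of 13, at 37.1 against 47.2. Strong islands numbered a median of 35 per D core and 80 per A core in that species (36 and 73 without pairs 2 and 8).

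**Figure D5:**
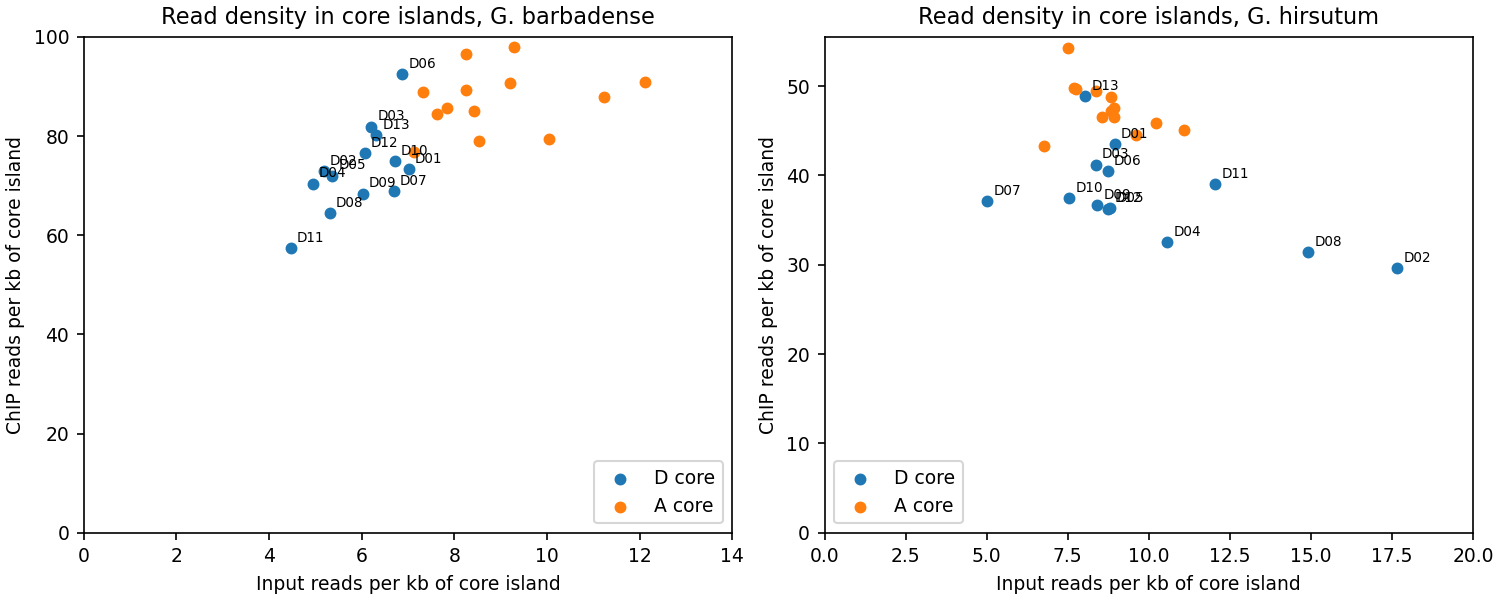
ChIP reads per kb against input reads per kb of core island, 1 point per chromosome, in G. barbadense (left) and G. hirsutum (right), D cores in blue with their names and A cores in orange. In G. barbadense the D points lie between 4.47 and 7.02 input reads per kb, with the A points from 7.14 upward; in G. hirsutum D07 has the least input (5.02) and D02 and D08 the most (17.7 and 14.9).

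A window of 2 Mb is a larger part of a D chromosome than of the longer A chromosomes, at a median of 3.19% against 1.86% in G. barbadense, and the shares of reads below are not adjusted for that. The D windows of G. barbadense held a median of 42.8% of the ChIP reads in their chromosomes' islands (31.3% on D11 to 53.5% on D03), and 7.16% of the input reads. In G. hirsutum they held 4.07% of the ChIP and 1.87% of the input reads at the median, with D09 highest in ChIP (10.95%) and D11 lowest (1.36%). The A cores held 32.3% and 3.11% of their chromosomes' ChIP reads. The share was higher on D in 11 of 13 G. barbadense pairs and 9 of 13 G. hirsutum pairs, and in the latter species D11 had 1.36% against 4.71% on A11. The cores took in 72.9% of the 5987 strong islands on G. barbadense D chromosomes and 65.7% of the 721 on those of G. hirsutum (69.5% of 678 without D02 and D08). Per chromosome that share was between 65.7% and 77.8% in G. barbadense. In G. hirsutum it reached 83.0% on D03 and 79.2% on D13 and was 39.5% on D04, 4.35% on D08 and 2 of 20 islands on D02.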

How the data were processed

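CENH3 ChIP and input libraries of 2 cottons were compared within each species. The tools named, per the submitters' processing notes, were Trimmomatic, Bowtie2 and SICER; no source used here gives their versions or the genome builds. The deposited list names record windows of 200 bp, gaps of 400 bp, a false discovery rate of 0.01 and the tag uniq; if that tag means uniquely placed reads, repeats may hold no island. The authors deposited, per island, raw counts of ChIP and input reads, a p-value, a q-value (false discovery rate) and a linear fold (a ratio of ChIP to input). The lists have no header; columns were read in SICER's order, and, for islands with input reads, the fold was the read ratio times a fixed constant in each list. Library totals were not used here; sums over islands are not depths.

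Positions are 1-based. Centres and members were found with Python 3.11.15, numpy 2.4.6, pandas 2.3.3 and scipy 1.17.1. The placing of centres and the pooled ratio were tried on simulated lists with a large cluster of strong islands on every chromosome. That trial does not bear on cores with few strong islands, such as D02 and D08 of G. hirsutum. Pooled ratios use the constants and no input floor. No test was run, since each group had 1 library and the rule used the contrast. Alternatives changed the ratio threshold, window, distance limit, input floor, window score, false discovery rate and islands without input reads. Named islands were the 3 with most ChIP reads, the 3 of highest ratio with 3 or more input reads, and the 3 longest per list, plus those at the limits; the strong islands of D02 and D08 were added after their values were seen. Members and measures were chosen with earlier results of these data known. A gene table of another G. barbadense assembly was not used, so no annotation is given for any region.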

Additional observations from a re-analysis of the deposited data

How the results depend on the processing

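Centres of all 13 G. barbadense D cores stayed within 0.5 Mb under each of the 8 settings tried. Of these, the setting of members within 0.5 Mb cannot move a centre, since it changes the members alone. In G. hirsutum D02 and D08 moved farther when the ratio to place the centre was 4 or 16, or when the window was chosen by the number of strong islands, and the other 11 did not. Matched centres numbered 11 or 12 of 13 in each of these settings. The number of members stayed within 1.5 times of 5261 and of 1122. The largest changes came from members within 0.5 Mb, by the construction of that setting, with pooled ratios of 38.1 and 6.32 and covered percentages of 46.7 and 10.6 in G. barbadense and G. hirsutum, and D above A in 4 of 13 pairs in G. hirsutum. A false discovery rate at or below 1e-10 left fewer islands, with ratios of 22.9 and 5.92 and cover of 34.4% and 6.73%. Without islands of 0 input reads the ratios were 18.4 and 4.43 and the cover 32.9% and 8.20%. A ratio of 16 to place the centre gave 20.4 and 4.75, with cover of 35.8% and 7.64%, and a ratio of 4 gave 3.97 and 8.46% in G. hirsutum. The window chosen by number gave 20.7 and 3.96, with cover of 35.7% and 8.04%, and the window of 0.5 Mb gave cover of 35.7% and 8.41%. The cause of these shifts was not tested. The next settings were chosen after seeing the data. Without D02 and D08 the G. hirsutum ratio was 5.57 and the cover 7.96%. Without pairs 2 to 5, D was above A in 6 of 9 G. barbadense pairs. Over strong islands only, a set cut at 8 on both sides, D was above A in 8 of 13 G. hirsutum pairs. No paired analysis was possible because each group had 1 library and no test was run.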
